A study of Caenorhabditis elegans with 6 samples.

Results

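The RNA of heat-shocked L3 larvae of the nematode Caenorhabditis elegans is described here from 3 libraries of the strain named hs::control, out of 6 libraries in the series. The members are the genes with a level of at least 1 CPM (counts per 1000000 counts in the rows that name a gene) in each of the 3 libraries, and 11199 of the 41573 listed genes passed, or 26.9%. The animals were synchronized as L1 larvae, grown at 20 °C on bacteria, held at 37 °C for 30 min as L3 larvae, 28 h after feeding began, and collected 1 h after the heat shock ended. The other strain of the series, hs::lin-29, had the same treatment, and its libraries were not used here. What the control strain's own construct holds is not stated in the labels. Each library came from a pellet of many frozen whole worms, and nothing in the labels says that the 3 trials, named replicates 1 to 3 here, were separate cultures. No library without heat shock was used, so each level is a level after heat shock and says nothing of how far a gene was induced.

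Heat makes proteins unfold, and cells answer through the transcription factor HSF-1 by switching on genes for chaperones, proteins that hold or refold unfolded chains. Small heat shock proteins bind unfolding chains, while HSP70 and HSP90 use ATP to refold them together with HSP40 partners. The L3 larva is a growing animal whose skin secretes a collagen cuticle that is replaced at each molt, and whose body is made largely of skin, body wall muscle, intestine and pharynx, with a germ line that is still expanding.

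The libraries held 14894654, 17303509 and 17210496 counts assigned to genes in replicates 1, 2 and 3. A further 39.8% to 41.8% of all counts lay in rows that name no gene, made of reads outside genes, ambiguous reads and reads with several alignments. At this depth 3 counts, taken as the limit that a count of 0 allows, correspond to between 0.173 and 0.201 CPM, and the threshold of 1 CPM to at least 15 counts in replicate 1 and 18 in the other libraries. The members held between 99.6% and 99.8% of the counts assigned to genes. Another 1356 genes reached 1 CPM in some libraries but not all, and 18870 were listed at 0 in all 3. The genes just inside the threshold, C01G6.3, C01F6.2 and B0393.7, had 1.01 CPM in their lowest library, and those just outside, F15H10.7, C07G1.7 and C34E10.9, had 0.988 CPM. Since the RNA is from whole animals, fewer cells of a type and less RNA per cell cannot be told apart.

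The counts were concentrated in a small part of the members. The single gene with the most counts, eef-1A.1, took 1.57% ± 0.0617 of the counts assigned to genes (SD, n = 3). The top 10 genes took 7.01% ± 0.321, the top 100 took 33.8% ± 1.18 and the top 1000 took 67.0% ± 1.26, while 313 genes held 50% of the mean counts. The median member stood at a mean of 22.3 CPM. Of the members, 145 had a mean of at least 1000 CPM, 1680 of at least 100 CPM and 7623 of at least 10 CPM, and 2117 lay below 5 CPM. Protein-coding genes took 96.8% ± 0.0685 of the counts. Of the protein-coding genes matched to the reference annotation 56.2% were members, the share to set beside the counts of members given below. Genes listed in the deposited counts under a sequence name were 52.2% of the members but took 25.2% ± 0.650 of the counts. Most counts thus fell to genes listed there under other names. Some of the sequence-named genes, such as C30C11.4 (hsp-110), have a given name in the reference, while others, such as Y37E3.8, do not.

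Among the 20 genes with the most counts, the translation machinery, muscle, chaperones, secretion, protein digestion and the cuticle were all present. The elongation factor gene eef-1A.1, whose product brings charged tRNA to the ribosome, led with 16157, 15010 and 15976 CPM in replicates 1, 2 and 3. The myosin heavy chain gene of body wall muscle, unc-54, followed with 7657, 7970 and 7946 CPM. The HSP90 gene daf-21 had 8935, 7539 and 6913 CPM. In replicate 1 daf-21 took more counts than unc-54, and in the other libraries the order was the reverse. Of the remaining 17 genes, 12 encode ribosomal proteins: rpl-4, rpl-5, rpl-10, rla-0, rpl-7, rps-4, rps-8, rps-2, rps-1, rps-25, rps-0 and rps-9. The others were hsp-1, which encodes the constitutive cytosolic HSP70, crt-1 (calreticulin of the endoplasmic reticulum), rack-1 (a scaffold protein bound to the ribosome), asp-1 (an aspartyl protease of the intestine) and the cuticle collagen gene col-125. This order is one of counts, to which longer genes give more: rpl-7 had a mean of 5097 CPM and rps-9, the last of the 20, a mean of 4437 ± 127 CPM.

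**Figure D1:**
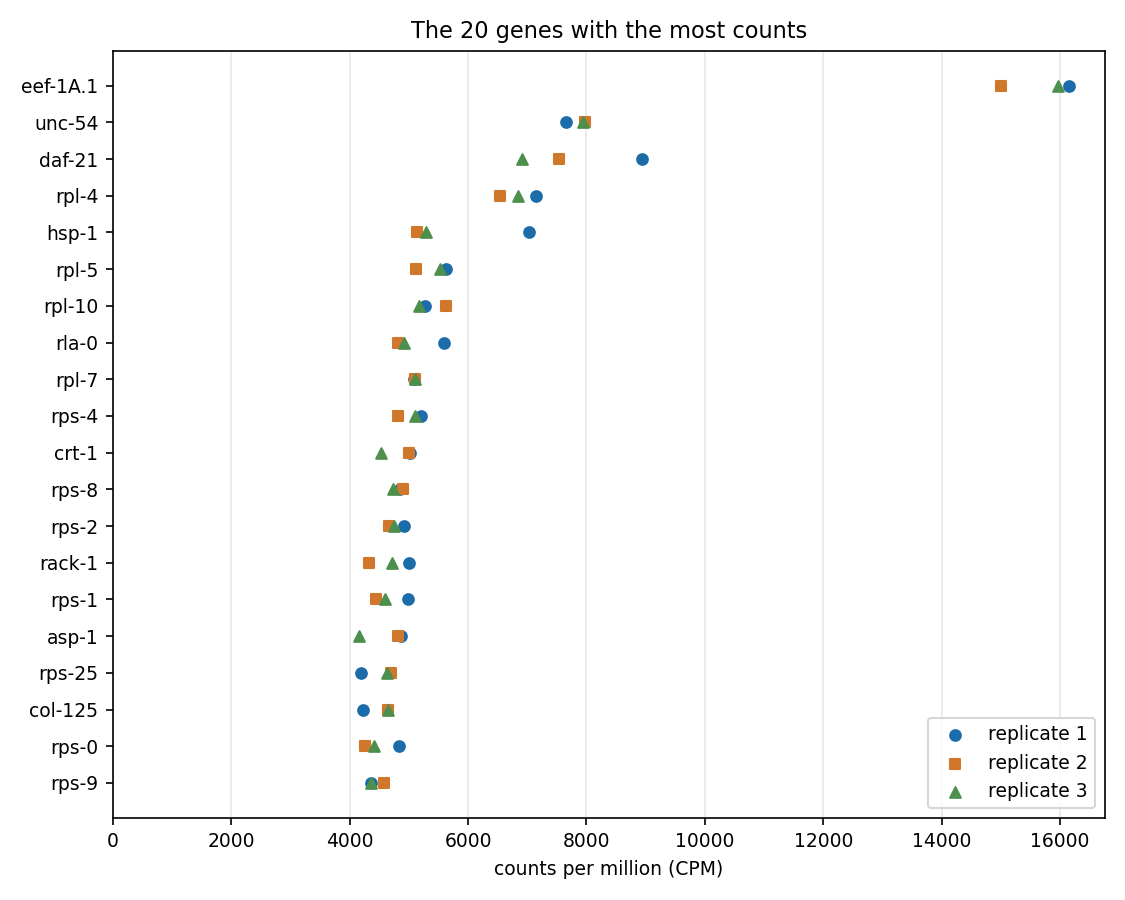
CPM in each of the 3 hs::control libraries (horizontal axis, starting at 0) for the 20 genes with the highest mean. The points of eef-1A.1 lie between 15010 and 16157 CPM, apart from all others, and replicate 1 lies to the right of the other libraries for hsp-1 and daf-21.

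A long gene gives more reads per RNA molecule than a short one, so an order in CPM, here and below, is one of counts held. Levels of genes were compared per kb of coding length (the longest coding sequence annotated for the gene). That length leaves out untranslated regions, so values per kb may be too high for genes with a short coding sequence. On that scale the ribosomal protein gene rps-25 stood highest, with a mean of 12839 ± 781 CPM per kb, and eef-1A.1 next, with 11313 ± 444 CPM per kb. The next were rps-23 (9907 ± 544 CPM per kb), rpl-38 (8978 ± 854), rpl-27 (8560 ± 412), Y37E3.8 (8449 ± 298), rpl-10 (8339 ± 368), rpl-36, rps-9 and rps-8. The means of rpl-27, Y37E3.8 and rpl-10 lay closer together than their SDs between libraries, and genes were not compared within each library. The myosin gene unc-54, second by counts, had a mean of 1334 ± 29.6 CPM per kb, far below the ribosomal protein genes named here. Among protein-coding members ranked by CPM, the first 100 had a median coding length of 627 bases, against 1251 bases for ranks 101 to 1000 and 1326 bases for ranks 1001 to 5000.

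Cytosolic ribosomal protein genes were the group with the most counts of the 64 gene lists examined, at 20.3% ± 0.445 of the counts assigned to genes. Their share was 20.8%, 20.0% and 20.0% in replicates 1, 2 and 3. Of the 80 genes on the list, 71 were members, 3 lay below the threshold and 6 were listed at 0. Per kb of coding length their median was 5844 CPM, with the 10th and 90th percentiles at 3600 and 7747 CPM per kb, against a median of 20.9 CPM per kb over all members with a length. A few members stood well below that range: rpl-22 had a mean of 9.27 CPM per kb, rpl-37 of 72.3 and rpl-24.2 of 304. These low members were picked out after their values were seen, and whether each encodes a part of every ribosome was not checked. Ambiguous reads and reads with several alignments count for no gene, and their part in these low values was not tested.

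The rest of the translation machinery took smaller shares of the counts. Translation factors took 2.86% ± 0.136 of the counts, with 21 of 29 genes members. After eef-1A.1 the most counts among them fell to pab-1, the gene of the poly(A)-binding protein, with 4784, 3944 and 4496 CPM, and to the elongation factor 1 subunit genes eef-1G and eef-1B.1, with means of 2751 ± 128 and 1638 ± 57.4 CPM. Mitochondrial ribosomal protein genes took 0.350% ± 0.00730, spread evenly over 63 members of 65 listed: the one with the most counts, mrps-18C, had a mean of 118 ± 8.93 CPM. Aminoacyl-tRNA synthetase genes, which load amino acids onto tRNA, took 0.428% ± 0.0177.

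**Figure D2:**
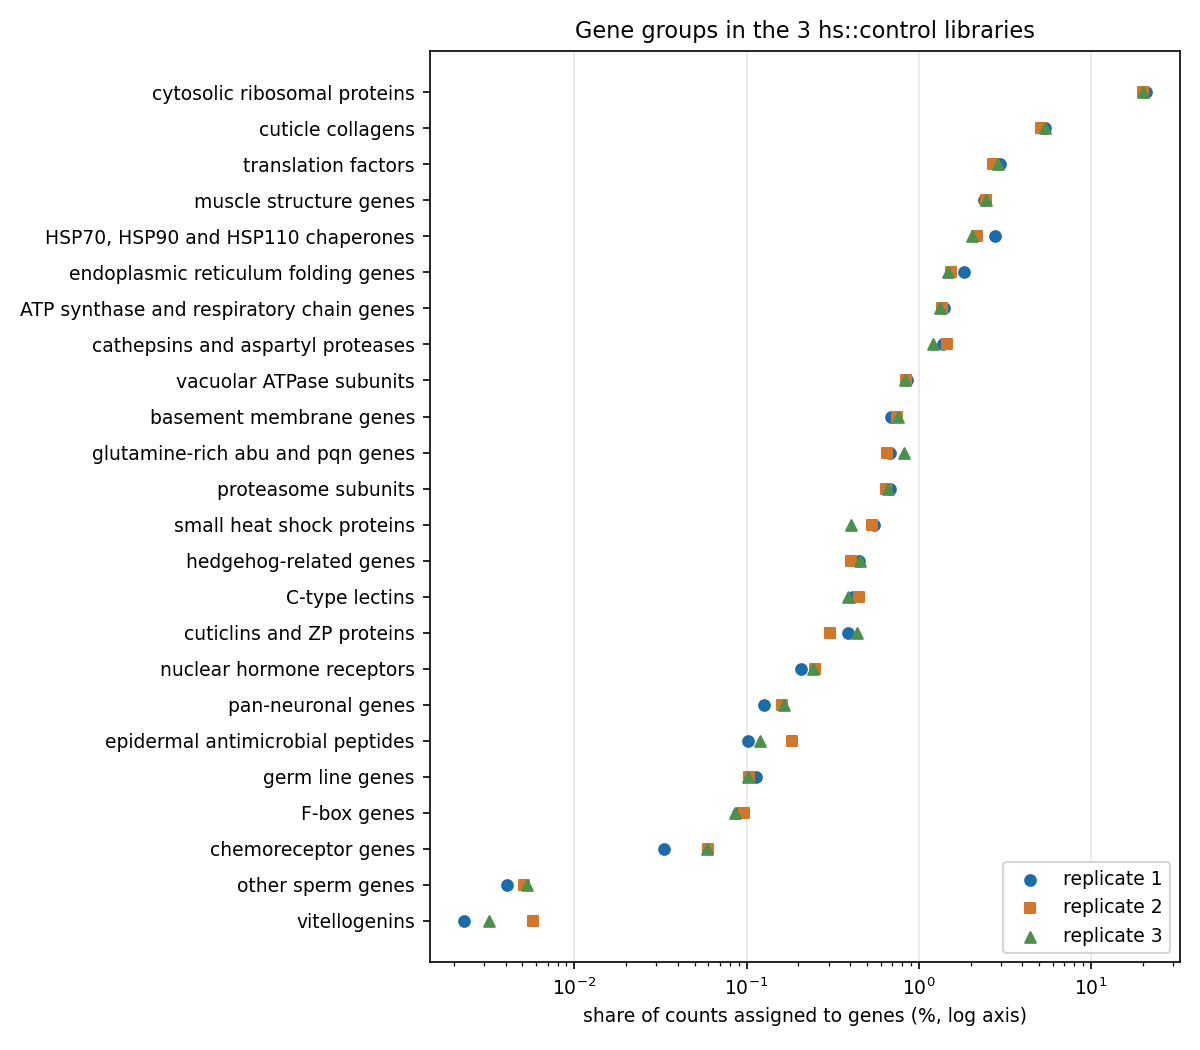
Share of the counts assigned to genes held by 24 of the gene lists (horizontal log axis, percent) in each of the 3 libraries. Ribosomal protein genes lie near 20%, cuticle collagens near 5%, and the chemoreceptor, sperm and yolk protein genes below 0.1%. The libraries stand farthest apart for the yolk protein, chemoreceptor and antimicrobial peptide genes. They lie close together for groups such as the ribosomal protein, collagen and muscle genes.

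Cuticle collagens were the second group, with 5.32% ± 0.190 of the counts, and 5.43%, 5.10% and 5.43% in replicates 1, 2 and 3. The list holds 173 genes, of which 121 were members, 39 lay below the threshold and 13 were listed at 0. Within the family the counts were uneven: 14 genes had a mean above 1000 CPM and 61 above 100 CPM, and the 10 collagens with the most counts held between 50.2% and 55.6% of all collagen counts. The gene col-125 had 4230, 4638 and 4648 CPM. Mutants of dpy-13 and dpy-4 are short and fat, since these collagens shape the body. The gene dpy-13 had 3923, 2990 and 3722 CPM, dpy-4 had 3907, 2915 and 3601 CPM, and col-17 had 3571, 2596 and 3266 CPM. These last 3 were lowest in replicate 2, whereas col-125 was lowest in replicate 1. Per kb, col-125 again led with a mean of 5023 ± 266 CPM, and dpy-4 and dpy-13 stood at 4007 ± 586 and 3913 ± 542 CPM per kb. These SDs are between libraries, which both genes share, so they do not tell whether the genes differ within a library.

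The collagens of the cuticle's annular furrows, which act as a set, were members with 1 exception. The genes dpy-8, dpy-7, dpy-9 and dpy-3 had means of 357 ± 77.2, 314 ± 61.1, 308 ± 57.1 and 263 ± 34.9 CPM. Per kb their means lay between 263 ± 56.9 and 329 ± 64.02 CPM. Neighbours in that order had means closer together than their SDs between libraries, and they were not compared within each library. All 4 were lowest in replicate 1; dpy-7 had 246, 329 and 365 CPM. On this list 5 of 6 genes were members, and 4 of those 5 were highest in replicate 3.

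Other products of the skin were also found among the members. Enzymes and partners that process collagen took 0.500% ± 0.0519 of the counts, led by pdi-2 (protein disulfide isomerase) with 3814, 3033 and 3180 CPM, followed by dpy-11 (a thioredoxin-like protein) and dpy-18 (prolyl 4-hydroxylase) at means of 396 ± 39.7 and 384 ± 66.9 CPM. The list of cuticlins and ZP domain proteins, some of which form ribbons and layers of the cuticle, took 0.377% ± 0.0653. The cuticlin gene cut-2 alone had 2420, 1589 and 2656 CPM, out of 3882, 3068 and 4359 CPM for the whole list in replicates 1, 2 and 3. The ZP genes noah-2 and noah-1, which act in molting, had means of 560 ± 43.3 and 508 ± 44.7 CPM. Of the 26 molting genes listed, 23 were members, with mlt-11, a protease inhibitor gene, at 497, 535 and 669 CPM. Hedgehog-related genes, an expanded nematode family secreted largely by the skin, took 0.435% ± 0.0277, with qua-1 at a mean of 811 ± 99.5 CPM and grl-16 at 652 ± 98.2 CPM. The patched-related genes, which encode membrane proteins akin to the hedgehog receptor, took 0.200% ± 0.00778.

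The abu and pqn genes encode proteins rich in glutamine and asparagine, and several of them form the cuticle that lines the pharynx. They took 0.717% ± 0.0871 of the counts, with 57 of 78 genes members. The gene abu-14 had 1085, 917 and 1364 CPM and pqn-74 had 477, 479 and 682 CPM, both highest in replicate 3, while pqn-59 differed little, with a mean of 569 ± 15.2 CPM. Basement membrane genes, which encode the sheet under the skin and around muscle, took 0.731% ± 0.0344. Their most counted members were the type IV collagen genes let-2 (2418, 2627 and 2679 CPM) and emb-9 (1502, 1751 and 1712 CPM) and the SPARC gene ost-1 (1631, 1846 and 1840 CPM). All 3 were lowest in replicate 1. Per kb, ost-1 stood at a mean of 2238 ± 155 CPM and the long collagen genes at 488 ± 26.2 for let-2 and 314 ± 25.4 for emb-9.

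Muscle structure genes took 2.43% ± 0.0376 of the counts, with shares of 2.38%, 2.44% and 2.45%, the smallest relative spread among the 5 groups with the most counts. The list has 39 genes, with 26 members and 9 listed at 0. After unc-54 came pat-10 (troponin C) with 2106, 2195 and 2075 CPM, sca-1 (the calcium pump of the sarcoplasmic reticulum) with 1756, 1748 and 1763 CPM, and mup-2 (troponin T) with 1572, 1420 and 1507 CPM. The median ratio of the highest to the lowest library was 1.096 over the 26 members, after scaling by TMM factors (trimmed mean of M values, which set the libraries to a common centre), against 1.23 over all members. The muscle members also held more counts, with a median of 508 CPM against 22.3 CPM over all members, and counting error widens the ratio at low counts.

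Genes of energy metabolism showed a similar steadiness. ATP synthase and respiratory chain genes took 1.36% ± 0.0335, with atp-2, the beta subunit of ATP synthase, at 3651, 3292 and 3274 CPM and the cytochrome c gene cyc-2.1 at a mean of 1132 ± 35.5 CPM. Genes of the TCA and glyoxylate cycles took 0.528% ± 0.0150, with the citrate synthase gene cts-1 at a mean of 1130 ± 28.3 CPM, and glycolysis genes took 0.336% ± 0.0100, led by the aldolase gene aldo-2 at 829 ± 44.5 CPM. Subunits of the vacuolar ATPase, the proton pump of acidic compartments, took 0.845% ± 0.0132, with 19 of 20 genes members and vha-2 at a mean of 1055 ± 12.4 CPM.

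Products of the intestine were abundant. Cathepsins and aspartyl proteases, most of them digestive enzymes, took 1.35% ± 0.121 of the counts. The gene asp-1 had 4869, 4816 and 4155 CPM, asp-3 had 2079, 2086 and 1725 CPM, and asp-6 had 1691, 1953 and 1551 CPM. All 3 were lowest in replicate 3. The intestine list, which shares asp-1 and asp-3 with that group, took 1.14% ± 0.0984 with 22 of 24 genes members, among them act-5, the actin of intestinal microvilli, at a mean of 1117 ± 90.6 CPM and ifb-2, an intestinal intermediate filament gene, at 567 ± 48.21 CPM. The lipid binding protein gene far-2 had a mean of 1452 ± 125 CPM, and clec-63 led the C-type lectins with 1849 ± 185 CPM. Of the 250 genes of that family 79 were members, or 31.6%, against 56.2% of all matched protein-coding genes.

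Chaperone genes include constitutive and heat-inducible ones, and the lists hold both. The 4 chaperone lists (small heat shock proteins, HSP70 with HSP90 and HSP110, HSP40 cochaperones and chaperonins) together took 3.91%, 3.22% and 2.97% of the counts in replicates 1, 2 and 3, a mean of 3.37% ± 0.486. Most of this was the HSP70, HSP90 and HSP110 list, with 2.33% ± 0.395, in which the HSP90 gene daf-21 and the constitutive hsp-1 took the most counts, followed by small heat shock proteins with 0.497% ± 0.0784, chaperonins with 0.336% ± 0.0341 and HSP40 cochaperones with 0.205% ± 0.00464. The relative spread of the 4 lists together was wider than that of the ribosomal, collagen or muscle groups.

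Among small heat shock protein genes, a pair of hsp-16 genes took most of the counts. The gene hsp-16.41, a member of the strongly heat-inducible hsp-16 family, had 2970, 2877 and 2249 CPM. Its relative hsp-16.2, widely used as a reporter of the heat shock response, had 1973, 1932 and 1303 CPM. Replicates 1 and 2 lay close together for both genes and replicate 3 was lowest. Per kb, hsp-16.41 stood at a mean of 6290 ± 914 CPM, above the ribosomal protein median, and hsp-16.2 at 3991 ± 863. The remaining 8 members ranged from hsp-12.2, with 178, 187 and 189 CPM, and hsp-17, with 179, 175 and 158 CPM, down to F08H9.4, with 1.14, 1.85 and 2.15 CPM. In between lay hsp-43 (a mean of 79.7 ± 6.76 CPM), sip-1 (35.7 ± 4.53), Y55F3BR.6 (27.02 ± 2.75), ZK1128.7 (23.5 ± 4.03) and hsp-12.1 (12.9 ± 2.54). Below the threshold were hsp-12.3, hsp-12.6 and F08H9.3. The genes hsp-25, hsp-16.49, hsp-16.48, hsp-16.11 and hsp-16.1 were listed at 0. The last 4 of these belong to near-identical duplicate pairs, whose reads cannot be told apart by alignment, so their value is uncertain.

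Among the larger chaperones, cytosolic ones took the most counts. The HSP70 gene hsp-1 had 7031, 5128 and 5290 CPM. The heat-inducible HSP70 gene hsp-70 had 915, 874 and 382 CPM, so replicate 3 stood apart from the other libraries. Its TMM-scaled ratio of highest to lowest library was 2.54, the widest among the chaperones named here. The HSP110 gene C30C11.4 (hsp-110 in the reference), an exchange factor for HSP70, had 2963, 1986 and 1940 CPM, and there replicate 1 stood apart. F44E5.4 and F44E5.5, which encode another heat-inducible HSP70 and are near-identical, were listed at 0, and the same uncertainty applies to them.

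Chaperones of other compartments were present as well. In the endoplasmic reticulum the BiP genes hsp-4 and hsp-3 had 3497, 2587 and 2178 CPM and 2641, 2106 and 2175 CPM. The gene of the endoplasmic reticulum HSP90, enpl-1, was listed at 0. In mitochondria the HSP70 gene hsp-6 had 1222, 928 and 971 CPM and the chaperonin gene hsp-60 had 748, 621 and 646 CPM. All 4 of these were highest in replicate 1. The cytosolic chaperonin subunit genes cct-1, cct-4 and cct-2 had means of 628 ± 79.9, 542.5 ± 57.4 and 490 ± 54.4 CPM. The HSP40 genes dnj-12 and dnj-19 and the HSP90 partner genes ZC395.10 (daf-41 in the reference) and sti-1 had means of 500.1 ± 28.0, 397 ± 12.5, 513 ± 4.05 and 390 ± 36.7 CPM. Genes for folding in the endoplasmic reticulum, a list that shares hsp-3 and hsp-4 with the chaperones, took 1.62% ± 0.181 of the counts, with crt-1 at 5025, 4999 and 4534 CPM. Proteasome subunits, which degrade damaged proteins, took 0.660% ± 0.0183, with 28 of 32 genes members.

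**Figure D3:**
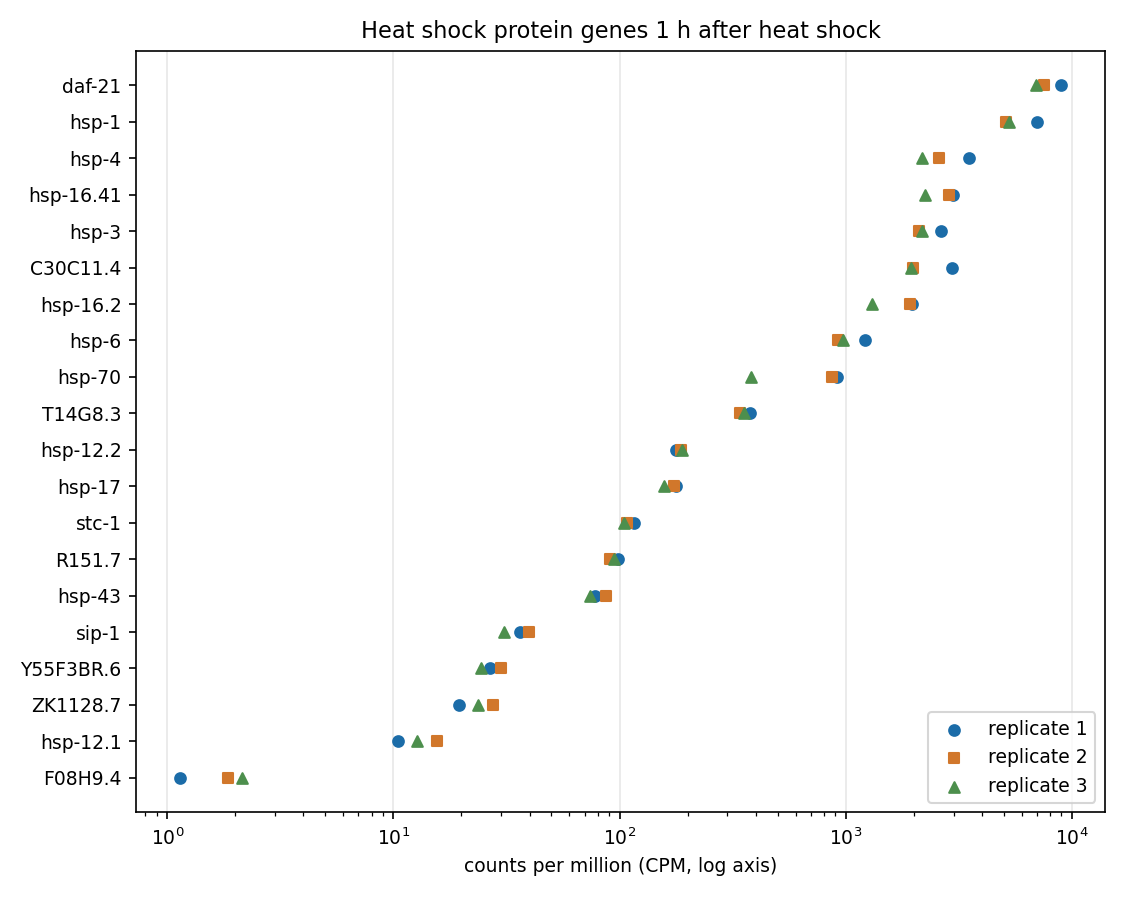
CPM (horizontal log axis) of the member genes for small heat shock proteins and for HSP70, HSP90 and HSP110 chaperones in each library. The genes span from 1.14 CPM (F08H9.4) to 8935 CPM (daf-21); replicate 3 is lowest for hsp-70 (382 CPM), hsp-16.2 (1303 CPM) and hsp-16.41 (2249 CPM), and replicate 1 is highest for most of the larger chaperones.

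The labelled stage and tissue were checked against marker genes. Of the fixed markers, 8 of 8 were members for intestine, 8 of 8 for neurons, 4 of 6 for muscle, 5 of 7 for skin, 3 of 5 for pharynx, 4 of 6 for germ line and 2 of 2 for coelomocytes. The muscle markers summed to between 9709 and 10032 CPM, the intestine markers to between 6744 and 7918, the pharynx markers to between 2023 and 2258, the skin markers to between 1254 and 1575 and the neuron markers to between 873 and 1060. The defining markers listed at 0 were unc-15 and dim-1 for muscle, pha-4 and ceh-22 for pharynx, elt-3 and sqt-3 for skin, and pgl-1 and rec-8 for germ line. Every tissue checked had member markers, with these gaps. Of all matched protein-coding genes 56.2% were members, so a count of member markers near that share says little of a tissue. Being a member also did not set stages apart: 3 of 3 oocyte and 4 of 7 adult markers were members, against 1 of 33 for sperm and 0 of 4 for early embryo.

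Markers of mature gametes, of embryos and of adults held few counts. The 33 sperm markers, mostly major sperm protein genes, summed to between 6.04 and 9.297 CPM with 15 of them listed at 0. Of the major sperm protein genes none was a member. The oocyte markers rme-2, oma-1 and oma-2 summed to between 19.2 and 19.7 CPM, and the 4 early embryo markers to at most 0.405 CPM. By members the germ line and oocyte lists were alike, with 24 of 30 genes (80%) and 11 of 13 (84.6%), and they differed in the counts held. The germ granule helicase gene glh-1 had 203, 210 and 182 CPM and the meiotic gene him-3 had 11.3, 10.3 and 9.41 CPM. The germ line list took 0.106% ± 0.00597 of the counts and the oocyte list 0.0134% ± 0.000718.

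The genes that mark the adult held few counts and were uneven between the libraries. The adult cuticle collagen gene col-19 had 0.671, 3.24 and 1.69 CPM, and col-7 had at most 0.116 CPM, both below the threshold. Yolk protein genes, expressed in the adult intestine, took 0.00374% ± 0.00180 of the counts. They were highest in replicate 2: vit-6 had 3.96, 13.2 and 6.04 CPM, vit-2 had 3.96, 11.5 and 4.42 CPM, and vit-4 had 1.21, 7.86 and 4.07 CPM. The collagen genes bli-1 and bli-2, which build the struts of the adult cuticle, went the other way, being highest in replicate 1. The gene bli-1 had 6.18, 1.79 and 2.15 CPM and bli-2 had 8.80, 4.74 and 3.54 CPM. The yolk protein genes together summed to 22.8, 57.5 and 32.1 CPM in replicates 1, 2 and 3, and the 6 listed adult collagen genes, bli-1, bli-2 and col-19 among them, to 20.7, 11.8 and 9.01 CPM. Replicate 2 was thus highest for the yolk genes and for col-19, and replicate 1 for the adult collagen list as a sum.

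Of the heterochronic genes, which set the timing of larval stages, 12 of 18 were members. The amyloid precursor-like gene apl-1 had 506, 520 and 549 CPM and the Period-like gene lin-42, whose RNA cycles with the molts, had 346, 353 and 411 CPM. The genes dre-1, ain-1 and lin-41 had means of 232 ± 12.13, 219 ± 22.2 and 203 ± 24.5 CPM. The gene lin-29 was at 46.9, 46.2 and 47.5 CPM and its cofactor gene mab-10 at 49.4, 43.1 and 46.8 CPM. The early genes lin-14, with 2.75, 3.29 and 2.56 CPM, and lin-28, with a mean of 0.144 CPM that lies below the limit a count of 0 allows, held few counts. The genes ain-2, daf-12, hbl-1, kin-20 and lin-66 were listed at 0.

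Large gene families differed in how many of their genes were members, against 56.2% of all matched protein-coding genes. That share was 3.17% for chemoreceptor genes, 28.98% for F-box genes and 20.5% for histones. Of 1327 chemoreceptor genes, each typically used in a few sensory neurons, 42 were members. The whole family took 0.0333%, 0.0601% and 0.0592% of the counts in replicates 1, 2 and 3, a mean of 0.0509% ± 0.0153. The 42 members alone took 0.0157%, 0.0179% and 0.0170%, so most of the family's counts lay in genes below the threshold. The chemoreceptor gene with the most counts, srv-1, had 27.2, 27.7 and 29.6 CPM. Of 352 F-box genes 102 were members, taking 0.0904% ± 0.00587. Nuclear hormone receptor genes, with 156 of 281 as members, or 55.5%, were near that share and took 0.234% ± 0.0227 of the counts in all, led by nhr-1 at a mean of 99.1 ± 12.4 CPM. Neuropeptide and insulin-like genes had 75 members of 103, or 72.8%, with nlp-40 at a mean of 164 ± 20.4 CPM and flp-1 at 123 ± 13.4 CPM. Detoxification families took few counts: 53 of 65 UDP-glucuronosyltransferase genes, 45 of 76 cytochrome P450 genes and 35 of 48 glutathione S-transferase genes were members (81.5%, 59.2% and 72.9%), taking 0.135%, 0.0902% and 0.187% of the counts. Histone genes had 15 members of 73, with 38 listed at 0, and the family consists largely of near-identical copies.

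A listed 0 could not be read as absence of RNA. Genes used by every cell were among those at 0, including the alpha-tubulin gene tba-1, the ubiquitin activating enzyme gene uba-1, the reference gene pmp-3 and the elongation factor gene eef-2. The actin gene act-1, which is on both the housekeeping and the muscle structure lists, was also at 0. Of 18950 protein-coding genes matched to the annotation, 2334 were listed at 0 in all 3 libraries, or 12.32%. The zeros followed how many coding sequences of different length the reference annotates for a gene. Among 14666 genes with 1 coding length 5.78% were at 0, against 34.3% of 2782 genes with 2, 38.4% of 732 genes with 3 and 32.6% of 770 genes with 4 or more. All 6 ribosomal protein genes at 0, rpl-1, rpl-29, rpl-30, rpl-31, rpl-32 and rps-6, have several coding lengths, compared with 7 of the 73 matched ribosomal protein genes that were not at 0. Of the 9 muscle structure genes at 0, among them unc-15 (paramyosin) and lev-11 (tropomyosin), 6 have several. The shares given above for these groups are therefore taken over the genes with counts, and the cause of the zeros was not tested.

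**Figure D4:**
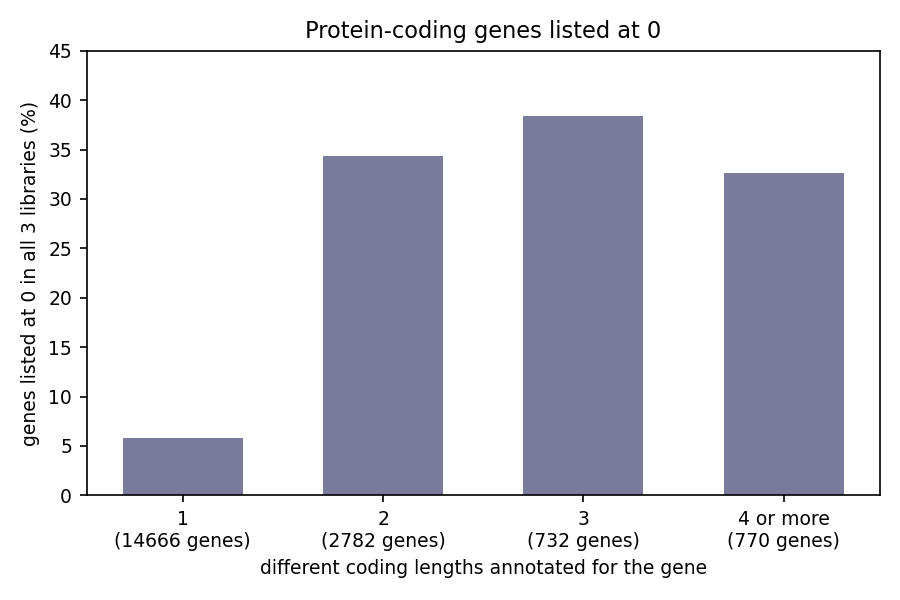
Share of matched protein-coding genes listed at 0 in all 3 libraries (vertical axis, percent, starting at 0), by the number of different coding lengths annotated for the gene. The share is 5.78% for genes with 1 coding length and between 32.6% and 38.4% for genes with more.

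The members were not spread evenly over the chromosomes of the reference assembly WBcel235. Of the matched protein-coding genes, 67.3% were members on chromosome III, 63.2% on X, 62.7% on I, 54.4% on IV and 54.01% on II, against 45.2% on V. Members on V and X also had lower levels, with medians of 16.02 and 16.6 CPM per kb of coding length, compared with 25.9 on I and 25.8 on III.

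The 3 libraries resembled each other closely, with replicates 2 and 3 the nearest pair. Over the 11199 members, the correlation of log2 CPM across genes, which are not independent replicates, was 0.992 between replicates 2 and 3, 0.985 between 1 and 2 and 0.987 between 1 and 3. On plain CPM the median member stood lower in replicate 1, by a log2 difference of -0.12 against replicate 2 and of -0.09 against replicate 3, while after TMM scaling these medians were -0.02 and 0.00. After scaling, 308 members differed more than 2-fold between replicates 1 and 2, 228 between 1 and 3 and 62 between 2 and 3. The common biological coefficient of variation (the spread between libraries beyond counting error) was 13.2%, and it was 9.77% without replicate 1, 13.4% without replicate 2 and 16.07% without replicate 3. Replicate 1 also had the fewest counts assigned to genes and the smallest share in rows that name no gene. Genes with at least 1 count numbered 17998, 20226 and 20153 in replicates 1, 2 and 3. The part of these differences in the distance of replicate 1 was not tested.

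The genes that varied most were few. Of 5879 members with a mean of at least 20 CPM, 43 had a highest library at least 2 times the lowest after TMM scaling, or 0.731%. Of these 43, 29 were highest in replicate 2, 11 in replicate 1 and 3 in replicate 3, and 30 were lowest in replicate 1. The widest range was that of sodh-1, an alcohol dehydrogenase gene, with 71.8, 372 and 146 CPM. The gene C50F7.5 had 102, 320 and 153 CPM and the noncoding RNA gene rncs-1 had 66.0, 187 and 106 CPM, all highest in replicate 2. The genes mxl-3 and mdl-1 encode bHLH transcription factors of the Max and Mad families. They had 19.5, 61.5 and 67.7 CPM and 70.2, 164 and 187 CPM, lowest in replicate 1 and close together in the other libraries. The same held for R11F4.1, with 35.3, 116 and 97.6 CPM, and for the nuclear hormone receptor gene nhr-19, with 12.02, 36.8 and 28.99 CPM. The remaining genes of the 15 with the widest ratio on plain CPM, Y41G9A.10, F17C11.4, T27F6.8, F48G7.8, cyp-13B1, nlp-27, F53A9.8 and T28B8.1, had plain CPM ratios between 2.63 and 3.52 and were all lowest in replicate 1 and highest in replicate 2. That order rests on the scale, since plain CPM set the median member lower in replicate 1. On TMM-scaled values hsp-70 (a ratio of 2.54), pud-4 (2.52) and pmp-5 (2.51), all highest in replicate 1, stood above nlp-27 (2.47), F53A9.8 (2.46) and T28B8.1 (2.46).

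Whole families differed together between the libraries. After TMM scaling, replicate 1 was the highest of the 3 for 37.3% of all members, replicate 2 for 34.8% and replicate 3 for 27.9%. All 10 member genes of the HSP70, HSP90 and HSP110 list, all 7 chaperonin genes, 25 of 28 proteasome genes, 58 of 71 cytosolic ribosomal protein genes, 23 of 24 housekeeping genes and 20 of 24 germ line genes were highest in replicate 1. So were 21 of 26 ATP synthase and respiratory chain genes, 15 of 17 genes of the TCA and glyoxylate cycles and 8 of 10 glycolysis genes. All 15 epidermal antimicrobial peptide genes, 34 of 38 transthyretin-related genes, 53 of 75 neuropeptide and insulin-like genes and 17 of 23 lysozyme and saposin genes were highest in replicate 2. In replicate 3 the highest values were those of 24 of 33 cuticlin and ZP genes, 33 of 57 abu and pqn genes, 15 of 23 molting genes and 9 of 13 pan-neuronal genes. With 1 library in each place these are descriptions of these libraries, with no test.

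The antimicrobial peptide genes, which the skin switches on after infection or wounding, had a median TMM-scaled ratio of highest to lowest library of 1.75, the widest among the lists with at least 5 members. The yolk protein and adult collagen lists, with 4 and 2 members of few counts, varied more, with median coefficients of variation of 55.8% and 58.3% against 28.0% for the antimicrobial peptides. The gene nlp-24 had 402, 716 and 482 CPM, nlp-33 had 242, 432 and 279 CPM, nlp-29 had 59.7, 125 and 69.0 CPM, and cnc-8 had 50.2, 98.2 and 72.2 CPM. In each of these, replicate 2 lay above both other libraries. Among transthyretin-related genes, a family of small secreted proteins, ttr-15 had 556, 826 and 568 CPM and ttr-16 had 483, 647 and 540 CPM, again highest in replicate 2. The lysozyme and saposin list, which encodes proteins that attack bacteria, held spp-5 with 464, 671 and 533 CPM and lys-1 with 473, 613 and 493 CPM.

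These families encode short proteins, and the library with the highest value followed coding length over all members. Replicate 2 was highest for 66.0% of 503 members of up to 300 coding bases, 49.5% of 1699 members of 301 to 600, 37.7% of 3757 members of 601 to 1200, 28.3% of 3417 members of 1201 to 2400 and 13.5% of 1268 members that are longer. The median log2 difference of replicate 2 over replicate 1 went from 0.27 for the shortest members to -0.08 for the longest, whereas that of replicate 3 over replicate 1 was 0.04 and 0.00. The median coding length was 219 bases for the antimicrobial peptides, 297 for the neuropeptides, 378 for lysozymes and saposins and 429 for the transthyretin-related genes. Their median log2 differences of replicate 2 over replicate 1 were 0.73, 0.30, 0.25 and 0.43. Genes of 301 to 600 coding bases that are on no list had a median of 0.12. Cytosolic ribosomal protein genes, with a median of 453 coding bases, had -0.17. Other short families varied. Their median log2 difference was 0.15 for fatty acid and retinol binding proteins (480 coding bases), 0.05 for small heat shock proteins (444) and 0.01 for histones (381). It was -0.03 for the nsp peptide genes (303) and -0.04 for mitochondrial ribosomal proteins (597). The part of length in the family differences was not tested.

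**Figure D5:**
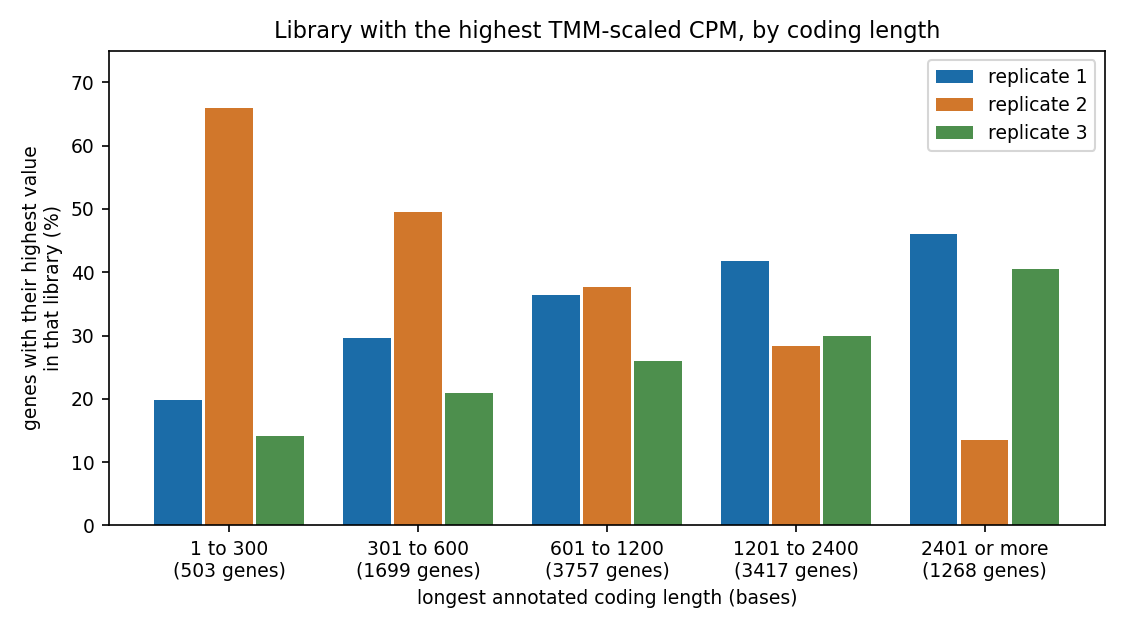
Share of members whose highest TMM-scaled CPM lies in replicate 1, 2 or 3 (vertical axis, percent, starting at 0), by the longest annotated coding length. Replicate 2 holds 66.0% of the highest values among members of up to 300 bases and 13.5% among those above 2400 bases.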

How the data were processed

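The authors deposited raw read counts per gene, without normalization, in a table for each library. RNA came from a Zymo Quick-RNA preparation and the libraries from the NEBNext Ultra kit, per the labels' protocols. Listed without roles in the submitters' processing notes are the build ce10 and the tools R 3.3.2, HTSeq 0.6.1p1, STAR 2.5.2b, bcl2fastq 2.18 and DESeq2 1.12.3. Which annotation release and which strand setting were used is not given in the sources used here, so reads of overlapping genes may not be told apart. Rows that name no gene (39.8%, 41.8% and 41.5% of the counts in replicates 1, 2 and 3) stayed out of library totals.

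The 3 hs::control libraries were used alone, and the hs::lin-29 libraries were not used here. With 1 group there is no comparison between conditions, no test and no p-value. Members had at least 1 CPM in all 3 libraries. The members and gene lists were chosen with earlier results of these data known. Genes were named from a set fixed by a rule: the 20 with the most counts, the 10 highest per kb with a mean of at least 5 CPM, up to 4 per list, all genes of the small heat shock, HSP70, adult, yolk and heterochronic lists, and the 15 with the widest range at a mean of at least 20 CPM. Genes named outside it are the markers, the genes at 0 in 3 further lists, pud-4 and pmp-5, and the low ribosomal genes rpl-22, rpl-37 and rpl-24.2. Of the members, 10848 matched the Ensembl release 115 annotation of WBcel235, 9612 by symbol and 1236 by locus tag. That build is not ce10, so no coordinates are given. The design foresaw coding length from a protein table; the longest annotated coding sequence was used in its place, and daf-21 and sodh-1 had none.

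TMM factors (0.958, 1.03 and 1.02) and dispersions came from edgeR 4.0.16, with an intercept only, tested on simulated data. Counts differed between libraries by more than sampling noise (chi-square per member of 2.39 or more for each pair), so none was taken for a library deposited more than once; this does not show that they were separate cultures. The labels mention no molecular identifiers, so the limit of 3 counts covers counting error only. DESeq2 1.42.0 size factors, R 4.3.3, Python 3.11.15, pandas 2.3.3 and matplotlib 3.10.9 were also used. Alternatives were other scalings, thresholds and denominators, the 20 most abundant genes left out, division by coding length and each library left out.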

Additional observations from a re-analysis of the deposited data

Results flagged for a closer look

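The counts in rows that name no gene lie outside every value of the report. They were 39.8% of all counts in replicate 1, 41.8% in replicate 2 and 41.5% in replicate 3. Reads with several alignments made up 17.6% to 18.7%, reads outside genes 10.8% to 12.4% and ambiguous reads 11.11% to 11.3%. Which genes these reads came from was not tested.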

How the results depend on the processing

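The count of 11199 members was the same under TMM scaling and DESeq2 size factors, 12024 with 1 CPM in 2 of 3 libraries, 8632 at 5 CPM, and 22703 for any gene with at least 1 count; leaving out each library in turn gave 11269 to 11854. With the rows that name no gene in the total, the top 10, 100 and 1000 genes held 4.13%, 20.0% and 39.5% of the counts, ribosomal protein genes 11.96%, cuticle collagens 3.14%, muscle genes 1.43% and the 4 chaperone lists 1.99%. Without the 20 most abundant genes these shares were 4.78%, 28.6%, 63.0%, 16.08%, 5.51%, 1.86% and 2.27%. After division by coding length they were 7.69%, 45.5%, 77.1%, 33.3%, 4.87%, 1.51% and 1.99%; daf-21, which has no matched length, is missing from the last. Leaving out each library gave 6.82% to 7.12%, 33.2% to 34.3% and 66.3% to 67.5% for the top 10, 100 and 1000 genes, 20.0% to 20.4% for ribosomal protein genes, 5.26% to 5.43% for collagens, 2.41% to 2.45% for muscle and 3.10% to 3.56% for chaperones. The coefficient of variation between libraries ranged from 9.77% to 16.07% over the libraries left out and from 13.2% to 14.7% over the other settings. Protein-coding genes at 0 were 2489 to 2740 with a library left out and 4555 when up to 3 counts per library were allowed. Under the other scalings, 0 of the levels of 53 single genes moved by more than 1 SD. That outcome was nearly fixed in advance, since each level is a mean over the 3 libraries and the scaling factors lie close to 1. It does not show that the levels are steady. No paired analysis was possible because a single group was described and its values come from no test. Levels near 0.2 CPM are limited by depth.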

Other observations

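Noncoding RNAs, chosen after their values were seen, added a small part of the counts. Genes annotated as ncRNA took 0.285%, 0.394% and 0.339% of the counts assigned to genes in replicates 1, 2 and 3, with 102 members of 6328. The gene W06H8.5 had 552, 709 and 763 CPM. The long noncoding RNA gene tts-1 had 556, 985 and 467 CPM, highest in replicate 2, and tts-2 had 147, 125 and 174 CPM, highest in replicate 3. The long intergenic RNA gene H36L18.2 (lep-5 in the reference) had 378, 342 and 333 CPM. Of 13331 genes annotated as piRNA, 32 were members, among them 21ur-15312 with 283, 234 and 259 CPM. Mature piRNAs are far shorter than usual library fragments, and since the strand setting is not known, a read in a gene that overlaps another may belong to either.

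Genes with higher TMM-scaled values in replicate 1 than in both other libraries, at a mean of at least 20 CPM and a ratio above 2, included pmp-5 with 127, 54.5 and 79.1 CPM, the collagen gene col-133 with 334, 209 and 160 CPM, and pyr-1, which encodes an enzyme of pyrimidine synthesis, with 263, 132 and 166 CPM. The cholinergic neuron gene unc-17 had 22.5, 38.6 and 43.1 CPM, lowest in replicate 1. These genes were named after their values were seen.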
